A study of Salmo salar with 20 samples.

Results

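Genes of redox protection and of xenobiotic metabolism were followed in the distal intestine of Atlantic salmon, as 39 probes of an oligonucleotide array that holds 21322 unique probes. The members were chosen by the measured values of 1 diet. The study lists genes that changed with saponins in fish on pea protein concentrate, 25 of them under the heading of the oxidative burst and protection from radicals and 19 under xenobiotic metabolism. Each entry was tied to the probe whose mean fold and standard error over the 4 fish of that diet, in the authors' processed values, lay within 0.0051 of the listed pair. This held for 21 of the 25 redox entries (7 listed as higher and 14 as lower) and for 18 of the 19 xenobiotic entries (all listed as lower). Myeloperoxidase matched 0 probes, while nitric oxide synthase trafficker, peroxiredoxin-4, peptide methionine sulfoxide reductase and aldehyde dehydrogenase family 9 member A1-A matched 2 each, and these 5 entries were left out. Just inside the limit lay CDGSH iron sulfur domain-containing protein 1, at a distance of 0.00494, and the nearest second probe of any member, that of glutathione peroxidase 4b, lay just outside at 0.00538. Gene names are those of the matched entries, since no sequence or annotation of the probes was used to name them.

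Post smolts with a mean weight of 270 g were fed for 80 days on 1 of 5 plant protein diets with soyasaponins at 2 g per kg: pea protein concentrate (PPC + S), horse bean meal (HBM + S), corn gluten (CG + S), sunflower meal (SFM + S) or rapeseed meal (RSM + S). From each of these diets, 4 fish were hybridised on 1 array each, 20 arrays in all, against a pool of RNA from 12 fish given that protein source and no saponins. The comparison thus set fish with saponins against fish without them on the same protein source. The pooled fish were kept in other tanks, so saponins and tank cannot be fully told apart. The fish of a diet came from 2 tanks, which are not named per fish, and their 4 arrays shared 1 slide, so that slide and diet cannot be told apart. The pool has no spread of its own, and the p-values treat the 4 fish as independent.

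All values below are log2 ratios of a fish over the pool of its diet, from the scanner intensities after loess normalisation within each array. A value of 1 is a level 2-fold above the pool. Fish 1 and 2 of each diet ran with the fish in the red channel (Cy5) and fish 3 and 4 in the green channel (Cy3) when the arrays were set against the authors' processed values, with an absolute r between 0.993 and 0.998 over 17348 spots. The stated dyes (fish in Cy5, pool in Cy3) oppose this for 10 of the 20 arrays, so the sign of every value rests on the processed values. With the arrays turned in this way, those of opposite dye correlated over all probes at a mean r of 0.53 in PPC + S, -0.25 in HBM + S, -0.03 in CG + S, -0.19 in SFM + S and -0.04 in RSM + S. Fish number coincides with dye orientation, so a difference between fish 1 and 2 and fish 3 and 4 may be of the fish or of the dye, and these cannot be told apart.

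Phagocytes make superoxide with a membrane oxidase, whose cytochrome subunits are joined by cytosolic factors on activation, and the gut epithelium removes peroxides with catalase, peroxidases and glutathione. Metal and heme proteins bear on the same chemistry because free iron and copper catalyse radical formation. Xenobiotic metabolism works in steps: cytochromes P450 and other enzymes oxidise or hydrolyse a foreign compound, and transferases then couple it to glutathione, glucuronic acid, sulfate or an acetyl group for export. In the intestine much of this capacity lies in the absorptive enterocytes.

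The values in PPC + S chose the members, and are given as a description with no test. All 39 members had a mean over 1.6-fold in their listed direction. For 37 of them all 4 fish lay on the listed side of the pool, whatever the size. The limits used below for the other diets are a mean over 1.6-fold and a limma Benjamini-Hochberg adjusted p under 0.05 over 17143 probes. In PPC + S 29 of the 39 were past them, beside 3.40% of all probes tested, but these are the values that chose the members, so the count is no test and nothing is read from it. Without fish 1, 2, 3 or 4 that count was 6, 0, 13 and 4, each with 3 fish in place of 4. The share of all probes is not given for 3 fish, so nothing is read from these counts either.

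**Figure D1:**
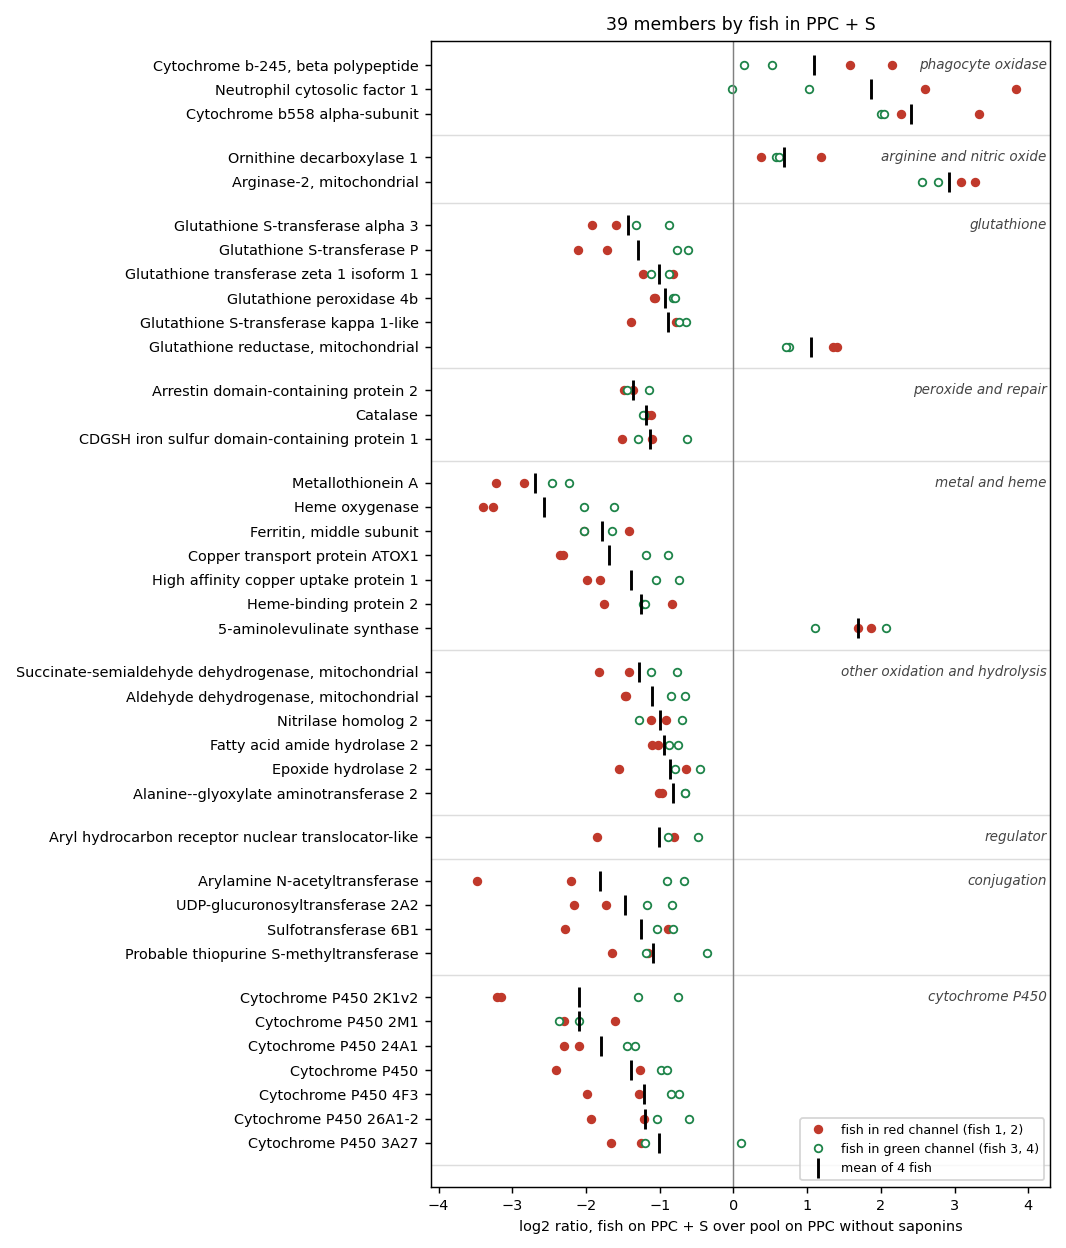
Log2 ratio of each fish on PPC + S over the pool on PPC without saponins (horizontal axis) for the 39 members, grouped by role. Filled red points are fish 1 and 2 (fish in the red channel), open green points are fish 3 and 4 (fish in the green channel), and the black tick is the mean of the 4 fish. The phagocyte oxidase subunits lie to the right of 0 and all cytochromes P450 to the left by their means, and fish 1 is farthest from 0 in the listed direction for 33 members.

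The 3 members of the phagocyte oxidase were listed as higher. Cytochrome b558 alpha-subunit, the smaller membrane subunit, had log2 ratios of 3.33, 2.27, 2.00 and 2.04 in fish 1 to 4 on PPC + S, a mean of 2.41 ± 0.62 (SD, n = 4) or 5.31-fold. Cytochrome b-245, beta polypeptide, the catalytic subunit, had 2.15, 1.58, 0.15 and 0.53, a mean of 2.14-fold (SD 0.93 on the log2 scale). Neutrophil cytosolic factor 1, the organiser that moves to the membrane on activation, had 3.83, 2.60, -0.02 and 1.03, with a mean of 1.86 ± 1.70. Every fish was above the pool for both membrane subunits, though fish 3 only by 0.15 for the catalytic subunit. For the cytosolic factor fish 3 was level with the pool. Entries taken as cell type markers also differed from the pool. The median of 8 leukocyte entries of the study's lists was 0.63 to 2.02 over the PPC + S fish, and that of 9 enterocyte entries was -2.92 to -1.29. The study chose those entries on the same arrays, and their part in the members' values was not tested. Other immune entries of its lists, such as MHC class I, are listed as lower, and some transporters as higher. The medians therefore hold for the entries picked as markers. In whole tissue, fewer cells of a type and less RNA per cell cannot be told apart.

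Arginine is the substrate both of nitric oxide synthase and of arginase, which yields ornithine, and ornithine decarboxylase turns that into the polyamine putrescine. Arginase-2, mitochondrial had log2 ratios of 3.09, 3.28, 2.77 and 2.56, a mean of 2.92 ± 0.32 or 7.59-fold, the highest mean of the 39 members. The size depends on the background correction: setting the normexp offset to 0 instead of 50 gave a mean of 4.01, the scanner software's ratios 4.45 and the authors' processed values 3.80. The probe tied to it carries the accession that the methods give for their arginase primers, which the rule had not used. Cytochrome b558 alpha-subunit and cytochromes P450 24A1 and 2M1 also have primers there. Their probes carry identifiers of another kind, so the same check could not be made. Ornithine decarboxylase 1 had 1.19, 0.37, 0.58 and 0.62, and its mean of 0.69 ± 0.35 was the smallest of all members. All 4 fish were above the pool for both enzymes.

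Glutathione members divided by direction. Glutathione reductase, mitochondrial, which regenerates reduced glutathione, was above the pool in every PPC + S fish, with 1.41, 1.35, 0.75 and 0.72 and a mean of 1.06 ± 0.37. The other 5 members of this role were below it, with means between -1.43 and -0.89. Glutathione S-transferase alpha 3, which couples glutathione to electrophiles, was lowest, with -1.91, -1.59, -0.88 and -1.32 and a mean of -1.43 ± 0.44. Glutathione S-transferase kappa 1-like, of the mitochondrial and peroxisomal class, was nearest to 0, with -1.39, -0.78, -0.64 and -0.74. Between them lay glutathione S-transferase P at -1.30 ± 0.72, glutathione transferase zeta 1 isoform 1, an isomerase of tyrosine breakdown, at -1.01 ± 0.19, and glutathione peroxidase 4b, which reduces lipid hydroperoxides, at -0.94 ± 0.15.

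Catalase, which splits hydrogen peroxide, had -1.18, -1.12, -1.21 and -1.23 in the PPC + S fish, a mean of -1.19 ± 0.05. Both size and spread depend on the processing, since an offset of 0 gave -2.20 ± 0.10, the scanner software's ratios -2.70 ± 0.26 and keeping outlier spots -1.04 ± 0.31. Arrestin domain-containing protein 2 had -1.36, -1.48, -1.14 and -1.45, with a mean of -1.36 ± 0.15. CDGSH iron sulfur domain-containing protein 1, a protein of the outer mitochondrial membrane, had -1.51, -1.11, -0.63 and -1.30, with a mean of -1.14 ± 0.37. As processed here, the 4 fish were closer together for catalase and the arrestin entry than for the CDGSH protein.

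As processed here, metal and heme proteins held the lowest means of the redox entries. In the scanner software's ratios catalase (-2.70) was below metallothionein A (-2.61) and heme oxygenase (-2.56). Metallothionein A, which binds zinc and copper, had -3.22, -2.84, -2.47 and -2.24, a mean of -2.69 ± 0.43, so that the fish were 6.46-fold below the pool. Heme oxygenase, which opens the heme ring and frees its iron, averaged -2.57 ± 0.89, and ferritin, middle subunit, an iron store, averaged -1.78 ± 0.30. In contrast, 5-aminolevulinate synthase, nonspecific, mitochondrial, the first step of heme synthesis, averaged 1.69 ± 0.41 and was above the pool in every fish.

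The copper proteins stood below the pool as well. Copper transport protein ATOX1, a chaperone that hands copper to its pumps, averaged -1.68 ± 0.76, and high affinity copper uptake protein 1 averaged -1.40 ± 0.60. Heme-binding protein 2 was nearest to 0 in this role, with -1.75, -0.84, -1.23 and -1.20 and a mean of -1.25 ± 0.38. No PPC + S fish reached the level of the pool for any of the 6 metal and heme members listed as lower.

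Cytochromes P450 made up 7 of the 18 xenobiotic members. Cytochrome P450 monooxygenase CYP2K1v2, of a fish family of fatty acid hydroxylases, had -3.21, -3.15, -0.75 and -1.29, a mean of -2.10 ± 1.26. Cytochrome P450 2M1, also a fatty acid hydroxylase of fish, had -1.61, -2.30, -2.36 and -2.09, a mean of -2.09 ± 0.34. The 4 fish formed a low and a less low pair for 2K1v2 and no such pairs for 2M1. For 2M1 the fish channel was not well above background on 1 of the 4 arrays, and its mean became -3.50 at an offset of 0 and -4.31 in the scanner software's ratios, while that of 2K1v2 was -2.20 at an offset of 0 and -2.18 in the scanner ratios. Cytochrome P450 24A1, mitochondrial, which inactivates vitamin D, had -2.30, -2.10, -1.33 and -1.45, a mean of -1.80 ± 0.48. Cytochrome P450 3A27, of the family that handles many drugs and steroids, was nearest to 0, with -1.67, -1.25, 0.10 and -1.20 and a mean of -1.004 ± 0.77. Here fish 3 was level with the pool. An entry named only cytochrome P450 averaged -1.39 ± 0.69, cytochrome P450 4F3, whose human namesake inactivates leukotrienes, -1.22 ± 0.57, and cytochrome P450, family 26, subfamily A1-2, which breaks down retinoic acid, -1.20 ± 0.56.

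Of the conjugating enzymes, arylamine N-acetyltransferase was lowest, with -3.48, -2.20, -0.67 and -0.90 in the PPC + S fish and a mean of -1.81 ± 1.30. Probable thiopurine S-methyltransferase was nearest to 0, with -1.64, -1.15, -1.19 and -0.35 and a mean of -1.09 ± 0.54. UDP-glucuronosyltransferase 2A2, which adds glucuronic acid, averaged -1.48 ± 0.59, and sulfotransferase 6B1 averaged -1.26 ± 0.69. All 4 were below the pool in every fish. The aryl hydrocarbon receptor nuclear translocator-like entry, a transcription factor known for its part in the circadian clock, had -1.85, -0.80, -0.47 and -0.89, a mean of -1.01 ± 0.59.

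The other oxidising and hydrolysing enzymes had means between -1.28 and -0.82. Succinate-semialdehyde dehydrogenase, mitochondrial, of the breakdown of the transmitter GABA, was lowest of these, with -1.83, -1.42, -0.77 and -1.11 and a mean of -1.28 ± 0.45. Alanine--glyoxylate aminotransferase 2, which turns glyoxylate into glycine, was nearest to 0, with -1.01, -0.97, -0.66 and -0.65 and a mean of -0.82 ± 0.19. Aldehyde dehydrogenase, mitochondrial, which oxidises acetaldehyde, averaged -1.11 ± 0.42. Fatty acid amide hydrolase 2 averaged -0.94 ± 0.16, epoxide hydrolase 2, which opens lipid epoxides, -0.86 ± 0.48, and nitrilase homolog 2 was 2-fold below the pool (SD 0.25 on the log2 scale). Each of the 6 was below the pool in all 4 fish.

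For a minority of members the size of the PPC + S mean turned on the background correction. With a normexp offset of 0, 7 of the 39 means were farther from 0 by over 1.5-fold, and in the scanner software's ratios 8 were, while none changed sign. Besides arginase-2, catalase and cytochrome P450 2M1 these were glutathione peroxidase 4b (-1.75 with an offset of 0), CDGSH iron sulfur domain-containing protein 1 (-1.91), alanine--glyoxylate aminotransferase 2 (-1.49) and UDP-glucuronosyltransferase 2A2 (-2.07), and in the scanner ratios also heme-binding protein 2. The order of these members within and across roles therefore holds for the processing used here. The other 31 means moved by less than 1.5-fold under both settings.

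The size of the change differed between the PPC + S fish, in a similar way for most members but not for all. Fish 1 had the largest change in the listed direction for 33 of the 39 members, and the smallest was in fish 3 for 20 and in fish 4 for 13. The median change in the listed direction was 1.87, 1.41, 0.85 and 1.11 in fish 1 to 4. For 36 of the 39 members the mean of fish 1 and 2 (fish in red) was farther from 0 than that of fish 3 and 4 (fish in green). This is also the usual case on these arrays, as it held for 87.99% of the 583 probes past the limits in PPC + S. The 3 exceptions were catalase, with means of -1.15 for fish 1 and 2 and -1.22 for fish 3 and 4, ferritin, middle subunit, with -1.72 and -1.83, and cytochrome P450 2M1, with -1.95 and -2.23. At the other end stood neutrophil cytosolic factor 1, with 3.22 for fish 1 and 2 and 0.50 for fish 3 and 4, and arylamine N-acetyltransferase, with -2.84 and -0.78. Enterocyte entries ran the same way, at medians of -2.69 and -2.92 in fish 1 and 2 and of -1.29 and -1.32 in fish 3 and 4. So did leukocyte entries, at 1.70 and 2.02 in fish 1 and 2 and at 0.63 and 0.68 in fish 3 and 4. Both sets of entries were listed from the same PPC + S arrays, where this is the usual case, so nothing is read from it.

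**Figure D2:**
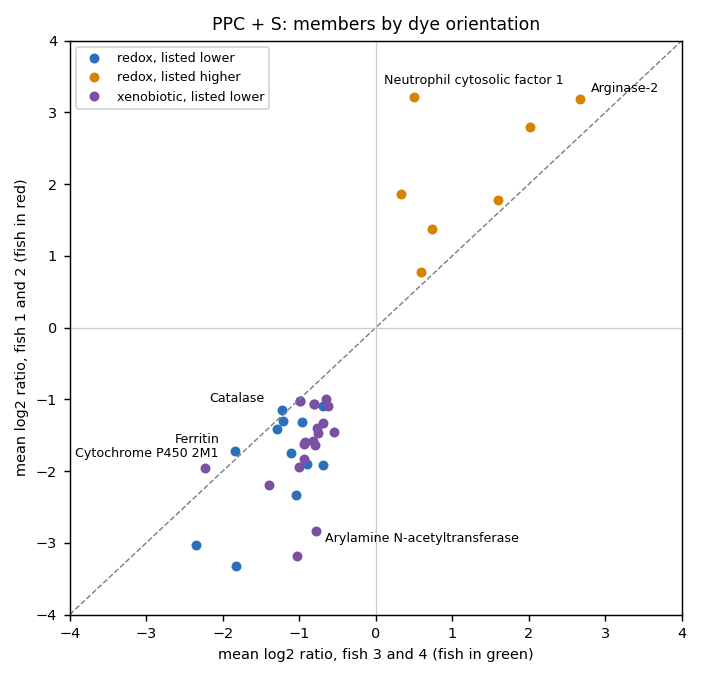
Mean log2 ratio of fish 1 and 2 (vertical axis, fish in red) against that of fish 3 and 4 (horizontal axis, fish in green) for the 39 members in PPC + S, coloured by list. On the dashed line both means are equal. For 36 members the point is farther from 0 on the vertical axis, and catalase, ferritin and cytochrome P450 2M1 are the 3 exceptions.

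In the other 4 diets, whose values the rule had not used, 0 members were called in HBM + S, CG + S, SFM + S or RSM + S by limma (4 fish against 0 in each diet, same limits). Calls were rare among all probes too: 0.0117% in HBM + S, 0.0175% in CG + S, 0.0117% in SFM + S and 0.0175% in RSM + S. As processed here, 2 members passed in CG + S with an unadjusted p under 0.05 and over 1.6-fold, both cytochromes P450. The number was 0 in each of HBM + S, SFM + S and RSM + S. Over all probes the share past these limits was 0.280% in HBM + S, 0.210% in CG + S, 0.280% in SFM + S and 0.467% in RSM + S. The lowest adjusted p of any member was 0.747 in HBM + S, 0.424 in CG + S, 0.753 in SFM + S and 0.830 in RSM + S. Mean log2 ratios of the redox members ran between -0.56 and 0.39 in HBM + S, -0.60 and 0.27 in CG + S, -0.58 and 0.40 in SFM + S and -0.38 and 0.20 in RSM + S. Those of the xenobiotic members ran between -0.61 and 0.21 in HBM + S, -1.52 and 0.19 in CG + S, -0.60 and 0.35 in SFM + S and -0.37 and 0.32 in RSM + S. No redox member thus exceeded 1.6-fold in any of these diets.

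**Figure D3:**
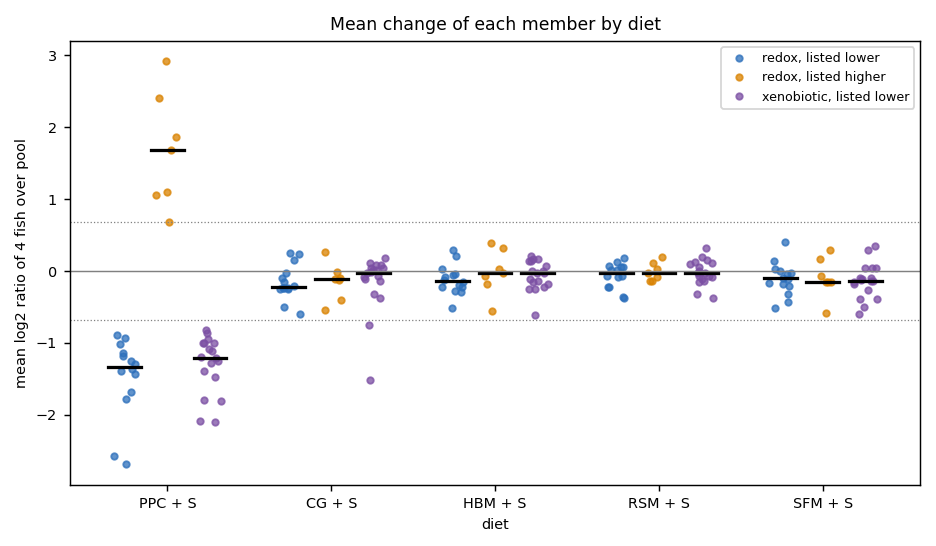
Mean log2 ratio of the 4 fish of a diet over its pool (vertical axis) for each of the 39 members (points) in the 5 diets, by list. Black bars are list medians and dotted lines mark 1.6-fold. Every member lies outside the dotted lines in PPC + S, by which the members were chosen, and in the other 4 diets all lie inside them but cytochromes P450 2M1 and 24A1 in CG + S.

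Cytochrome P450 24A1, mitochondrial had -0.69, -0.72, -0.52 and -1.07 in the CG + S fish, a mean of -0.75 ± 0.23 (SD, n = 4, limma adjusted p = 0.424). All 4 fish were below the pool, with means of -0.70 for the fish in red and -0.80 for the fish in green. In SFM + S the same member had -0.71, -0.73, -0.23 and -0.75, a mean of -0.60 ± 0.25 (limma adjusted p = 0.753), also below the pool in all 4 fish. In HBM + S it had -0.97, -0.49, 0.57 and 0.28, and in RSM + S -0.53, 1.01, -0.44 and 0.72, with fish on both sides of the pool.

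Cytochrome P450 2M1 had 0.36, -2.13, -1.90 and -2.41 in the CG + S fish, a mean of -1.52 ± 1.27 (limma adjusted p = 0.916), and 3 of the 4 fish were below the pool. As processed here, those 3 fish lay between -2.41 and -1.90, beside -2.36 to -1.61 in the PPC + S fish. The PPC + S mean became -3.50 at an offset of 0 and -4.31 in the scanner software's ratios. Cytochrome P450 2M1 was not compared in the CG + S fish under those settings. Its spread was wide in the other diets as well, with values of 0.50, -0.88, -1.08 and 1.37 in HBM + S, -0.43, -0.81, 1.49 and 1.16 in SFM + S and 0.58, -0.84, -0.01 and -0.99 in RSM + S. Each of these 3 diets had fish on both sides of the pool. Single fish differed from it by over 2-fold in both directions in HBM + S and only upward in SFM + S, and none did in RSM + S.

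Over the 16 arrays of the 4 other diets in 1 limma fit, 0 members were called in the mean of the diets, where 0.00583% of all probes were. At an unadjusted p under 0.05 and any size, 8 of the 39 members were lower in the fish and 0 were higher. That number of members, in either direction, was 4 with median centring without loess and 5 in the authors' processed values. Over all probes 3.86% were lower and 3.84% higher at that limit. In either direction this was 1319 of 17143 probes, against 805 with median centring and 1406 of 17106 in the processed values. Heme oxygenase had the smallest p, with a mean of -0.38 (limma adjusted p = 0.216) and lower values in 13 of 16 fish. Its values, shown for that reason, were -0.42, -0.67, -0.44 and -0.85 in CG + S and -0.30, -0.96, -0.33 and -0.45 in SFM + S. In RSM + S they were -0.36, 0.23, -0.87 and -0.45, and in HBM + S 0.21, 0.38, -0.17 and -0.64. CG + S and SFM + S fish were all below the pool, and the other 2 diets had fish on both sides.

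Cytochrome P450, family 26, subfamily A1-2 came next, with a mean of -0.35 (limma adjusted p = 0.341) and 13 of 16 fish below the pool. Diet means of this member were -0.25 ± 0.32 in HBM + S, -0.38 ± 0.12 in CG + S, -0.38 ± 0.59 in SFM + S and -0.37 ± 0.37 in RSM + S. Ornithine decarboxylase 1 (-0.30) was lower although it was listed as higher in PPC + S. The other 5 were cytochrome P450 24A1 (-0.33), glutathione S-transferase alpha 3 (-0.17), catalase (-0.16), copper transport protein ATOX1 (-0.14) and glutathione peroxidase 4b (-0.12), with adjusted p between 0.544 and 0.626. How the arrays are turned sets the sign of 5 of these 8 means. With the dyes as stated the mean was 0.14 for heme oxygenase, 0.13 for ornithine decarboxylase 1, 0.17 for catalase, 0.034 for glutathione S-transferase alpha 3 and 0.077 for glutathione peroxidase 4b. It stayed below 0 for cytochrome P450 26A1-2 (-0.11), cytochrome P450 24A1 (-0.15) and copper transport protein ATOX1 (-0.12).

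**Figure D4:**
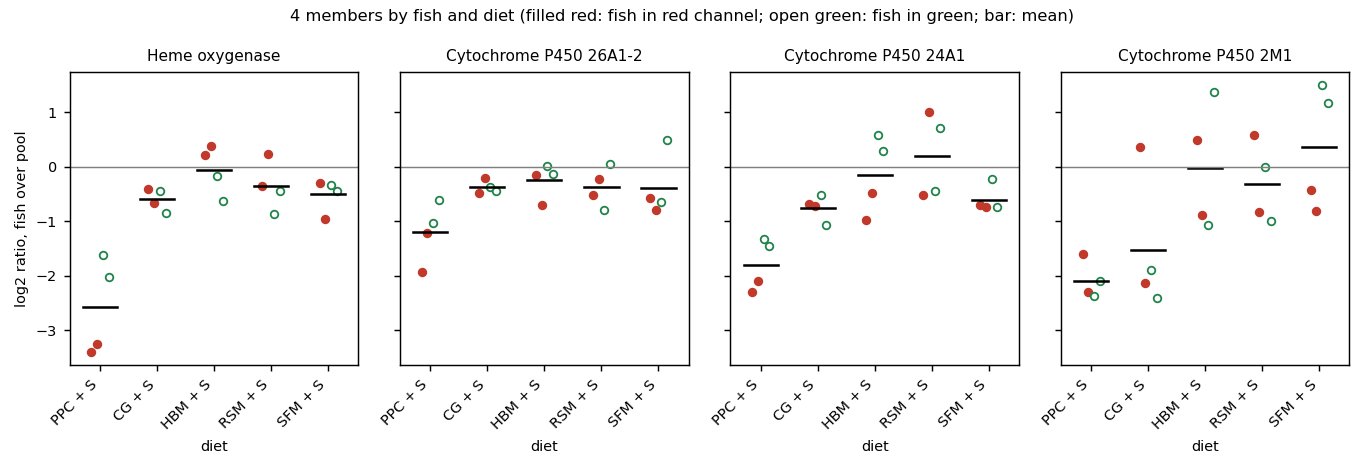
Log2 ratio of each fish over its pool (vertical axis) in the 5 diets for heme oxygenase and cytochromes P450 26A1-2, 24A1 and 2M1. Filled red points are fish in the red channel, open green points are fish in the green channel and bars are means of 4 fish. PPC + S fish are lowest for heme oxygenase. As processed here, 3 CG + S fish lie as low as the PPC + S fish for cytochrome P450 2M1.

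The test for a difference among these 4 diets called 0 members by limma's F-test, beside 0.0233% of all probes. At an unadjusted p under 0.05 it held 3 of the 39 members, against 5.03% of all probes. Heme-binding protein 2 (limma adjusted p = 0.911) had values of -0.43, -0.68, -0.21 and -0.72 in HBM + S, all below the pool, and a mean of 0.24 ± 0.28 in CG + S. CDGSH iron sulfur domain-containing protein 1 had 0.45, 0.31, 0.69 and 0.14 in SFM + S, all above the pool, and a mean of -0.50 ± 0.51 in CG + S. Aldehyde dehydrogenase, mitochondrial averaged 0.21 ± 0.18 in HBM + S and -0.10 ± 0.19 in SFM + S, and its spot in CG + S fish 2 was left out by its outlier flags.

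Medians over each list summarise the 5 diets. For the 14 redox members listed as lower, the median of each fish was -1.83 to -0.88 in PPC + S, and it was -0.31 to 0.05 in HBM + S, -0.51 to 0.05 in CG + S, -0.29 to 0.12 in SFM + S and -0.21 to 0.21 in RSM + S. For the 18 xenobiotic members it was -1.84 to -0.81 in PPC + S, and -0.17 to 0.06 in HBM + S, -0.31 to 0.13 in CG + S, -0.31 to -0.01 in SFM + S and -0.11 to 0.11 in RSM + S. The 7 redox members listed as higher had medians of 0.75 to 2.15 in PPC + S fish and between -0.39 and 0.25 in all fish of the other diets. No fish of another diet overlapped the PPC + S fish on any of the 3 list medians, of which the choice of members had set the PPC + S side. Medians over all probes tested lay between -0.010 and 0.0075 in the 20 fish.

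**Figure D5:**
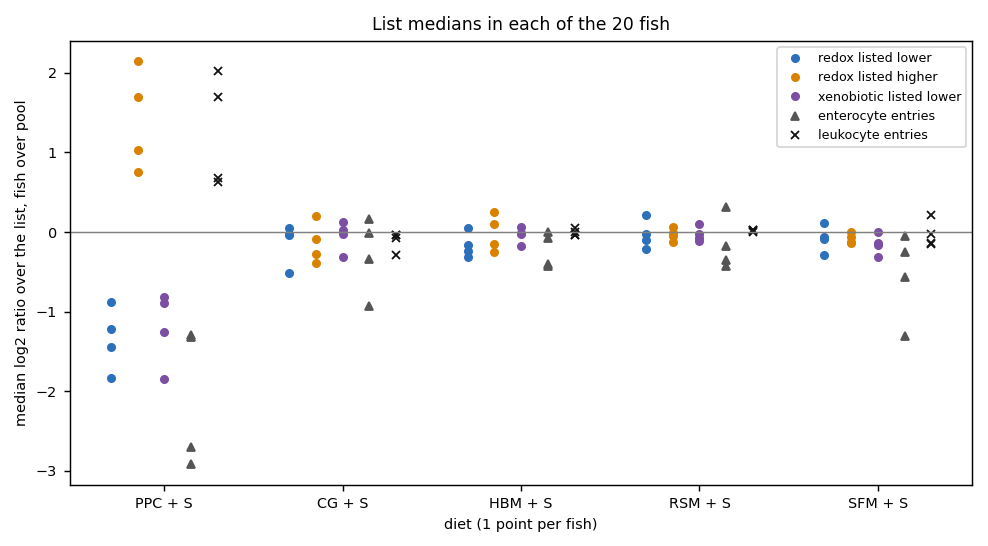
Median log2 ratio over each list (vertical axis) in each of the 20 fish (1 point per fish), by diet, for the 3 member lists and for the enterocyte and leukocyte entries. PPC + S fish lie apart from the other diets on the 3 member lists and the leukocyte entries. The entries of every list were chosen on the PPC + S arrays, which set that side. On the enterocyte entries SFM + S fish 4 (-1.31) lies among the PPC + S fish (-2.92 to -1.29), and CG + S fish 4 is at -0.93.

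Below these medians single fish and roles differed. CG + S fish 4 had 32 of 39 members in the direction listed for PPC + S, and for 22 members it was the CG + S fish with the largest change in that direction. CG + S fish 1, 2 and 3 had 14, 22 and 17 members in that direction, and RSM + S fish 2 had 9. Such members were not counted over all probes, so nothing is read from their number. In CG + S fish 4 the median over the redox members listed as lower was -0.51. Over the enterocyte entries it was -0.93, against -0.34, -0.01 and 0.16 in the other 3 CG + S fish. In SFM + S the 7 cytochromes P450 had medians of -0.58 and -0.80 in fish 1 and 2 (fish in red). Their medians were -0.02 and -0.04 in fish 3 and 4 (fish in green), so fish and dye cannot be told apart here. Of their 7 means, 6 were below 0. Enterocyte entries in SFM + S had medians of -0.05, -0.56, -0.25 and -1.31 in fish 1 to 4. Leukocyte entries stayed between -0.29 and 0.22 in all fish of the 4 other diets. The part of the enterocyte and leukocyte entries in the members' values was not tested.

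As for the signal behind these values, both channels were well above background on all 20 arrays for 36 of the 39 members, beside 68.1% of the probes tested, and no spot of a member was saturated on any array.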

How the data were processed

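The authors deposited, per the file headers, median spot and local background intensity in Cy3 and Cy5 for each array and a log10 ratio from the scanner software (Feature Extraction 10.7.1.1 in the headers, Agilent Feature Extraction 9.6.1 in the submitters' processing notes). The authors' processed values are Lowess-normalised log2 ratios, which chose the members and the direction of each array. The methods name another scanner and program, so the extraction behind those values is not known. Members and lists were chosen with earlier results of these data known. No columns of the authors' own comparisons were used.

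Spots with an outlier flag (2.02% to 3.81% per array) were left out, background was corrected with normexp (offset 50), arrays were normalised by loess, and each probe's 2 spots were averaged (limma 3.58.1, R 4.3.3). Tested were the 17143 of 21322 probes that the scanner flag put well above background in either channel, on 3 or more of the 4 arrays of any diet. Each diet was fitted alone against 0. The 4 other diets were also fitted together. Limits were a Benjamini-Hochberg adjusted p under 0.05 and a mean over 1.6-fold. Each test was also run on simulated independent values. These carry no shared dye, slide or tank effect, so nothing about the calls is read from them. Every member is named. Values per fish are given for the members with the largest and smallest PPC + S mean of each role (all in roles of under 4), for arginase-2, and for those past the unadjusted limits in another diet. Values of other members were shown after they had been seen. The number of arrays limits the precision.

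Same-numbered fish of the 4 other diets deviated together from their diet means, with r between 0.14 and 0.62 in every pair, so the numbers were also used as a block. By number, the median r of these pairs was 0.25 to 0.37. Pairs of another number and the same dye orientation had a median r of 0.25, and pairs of opposite orientation had -0.28. The numbers coincide with dye orientation, and the part of each in this pairing was not tested. Fish numbers differ between the scanner files and the processed values for 12 of 20 arrays and were not compared between them.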

Additional observations from a re-analysis of the deposited data

Results flagged for a closer look

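In 16 of the 194 groups of a member and a diet, 8.25% of them, 1 fish stood far from the other 3. The mark was a gap past Dixon's limit, which independent normal values pass in about 1 in 20 groups of 4. Members share the same fish, and fish number coincides with dye orientation, so that rate need not hold here. Such groups were not counted over all probes, so nothing is read from their number. In PPC + S the member with such a fish was sulfotransferase 6B1, at -2.29 in fish 1 against -1.03 to -0.81 in the others. In CG + S it was cytochrome b-245, beta polypeptide (0.50 in fish 2, against -0.39 to -0.26), glutathione S-transferase P (-0.31 in fish 4, against 0.06 to 0.07), high affinity copper uptake protein 1 (-0.11 in fish 4, against 0.35 to 0.44), the aryl hydrocarbon receptor nuclear translocator-like entry (0.39 in fish 1) and cytochrome P450 4F3 (-0.16 in fish 4). Fish 4 thus accounts for 3 of the 5 in that diet, and it also stood apart in the median of the redox members listed as lower, at -0.51 against -0.03 to 0.05.

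In HBM + S the fish that stood apart were at 0.52 for succinate-semialdehyde dehydrogenase, mitochondrial and at 0.16 for UDP-glucuronosyltransferase 2A2. In RSM + S they were at -0.29 for epoxide hydrolase 2, 0.37 for fatty acid amide hydrolase 2 and -0.36 for nitrilase homolog 2. In SFM + S, cytochrome b-245, beta polypeptide was at -0.56 in fish 2, arginase-2 at 0.15 in fish 4, glutathione reductase, mitochondrial at 0.35 in fish 3, cytochrome P450 24A1 at -0.23 in fish 3 (the others lay between -0.75 and -0.71) and cytochrome P450, family 26, subfamily A1-2 at 0.50 in fish 4 (the others lay between -0.80 and -0.58). No cause was tested for any of these.

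In 5 cases every PPC + S fish lay on one side of its pool and every fish of another diet on the opposite side, a difference that was not tested and of which the rule had chosen the PPC + S side. Such cases were not counted over all probes, so nothing is read from their number. The PPC + S mean minus the other was 1.25 for ornithine decarboxylase 1 (HBM + S), -1.54 for CDGSH iron sulfur domain-containing protein 1 (SFM + S), and, against RSM + S, 1.18 for cytochrome b-245, beta polypeptide, -1.07 for glutathione S-transferase kappa 1-like and -1.43 for glutathione S-transferase P.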

How the results depend on the processing

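Both the direction of the arrays and the background correction moved values. With the dyes as stated, in place of the direction of the processed values, 0 members lay past the limits in PPC + S, against 29, and the medians in PPC + S became -0.30 (redox listed as lower), 0.51 (redox listed as higher) and -0.35 (xenobiotic), against -1.34, 1.41 and -1.20. The medians of the redox members listed as lower became 0.14 in CG + S and 0.074 in HBM + S. The PPC + S means of catalase (0.036), ferritin, middle subunit (0.056) and cytochrome P450 2M1 (0.14) changed sign.

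The counts of members called in each of the 4 other diets, in the mean of these diets and in the difference between them stayed at 0 under every alternative run with adjustment (other background corrections, kept outlier spots, median centring, the scanner software's ratios, the processed values, other filters, 1 fit of all 20 arrays, a dye orientation term, each array left out). In CG + S without adjustment, 2 members passed with limma and 1 with the methods' t-test, and 0 with that test after Benjamini-Hochberg. With fish number as a replicate block, 0 members were called in the mean of the 4 diets and 0 in the difference between them, so the block changed no call; the adjusted p of heme oxygenase was then 0.0895. Under the same processing alternatives, dyes aside, 26 to 35 members lay past the limits in PPC + S, and 0 to 13 with 1 fish left out. These counts are on the values that chose the members, with no share of all probes beside them. Nothing is read from them. The median of the redox members listed as higher in SFM + S moved to -0.0042 with outlier spots kept and to -0.18 over probes detected in both channels of every array. In PPC + S, 8 members moved by over 1 SD between fish with a normexp offset of 0, 8 in the scanner software's ratios, 9 with median centring, 5 without background correction, 2 in the processed values and 1 with outlier spots kept. In the mean of the 4 other diets, the members past an unadjusted p of 0.05 at any size were 8, against 4 with median centring, 5 in the processed values, 11 with the dyes as stated and 7 or 8 under the other settings. Over all probes the numbers were 1319 of 17143, against 805 with median centring and 1406 of 17106 in the processed values. With the dyes as stated 8088 of the 17143 probes were past it, so nothing is read from the 11 members.

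Leaving out 1 fish at a time, medians of the redox members listed as lower ran from -1.50 to -1.18 in PPC + S. Those of the redox members listed as higher ran from 1.16 to 1.62, and those of the xenobiotic members from -1.33 to -0.99. Leaving out 1 of 4 fish cannot move the mean of their medians by more than the spread between fish. Nothing is therefore read from the other diets here. What limits these results is the single pool per diet, 4 fish from 2 tanks, and 1 slide per diet.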
